A study of Rattus norvegicus with 862 samples.

Results

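Mitoxantrone is an anticancer drug of the anthracenedione class, and its hearts are described here from 9 arrays of the DrugMatrix rat collection, 1 array per animal, out of 862 arrays of 840 animals. The members were chosen by their labels alone: mitoxantrone at 2 mg/kg, given intravenously in saline, at every duration, which gave 3 rats at 1 d, 3 at 3 d and 3 at 5 d. They were set against 22 rats given intravenous saline at dose 0 whose RNA belonged to the same extraction campaign (6 at 1 d, 8 at 3 d and 8 at 5 d). All were male Sprague Dawley rats of the CD-IGS stock, bought at 6 to 8 weeks of age, and poly A RNA of heart was hybridised to the Affymetrix rat genome array. By the labels, harvest began after noon at 1 d but early in the morning at 3 and 5 d, and each treated animal was compared with controls of its own duration. The sources used here do not say how often the dose was repeated. The 9 treated rats belonged to 1 in-life study, and none of the 22 controls did. These controls came from 9 other studies, so that a difference between studies and the effect of the drug cannot be told apart.

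Mitoxantrone slips between the bases of DNA and traps topoisomerase II on the strands it has cut, which leaves double-strand breaks. Cells answer such breaks through the kinase ATM and the transcription factor p53, which switches on genes that stop the cell cycle, repair DNA or start apoptosis. Of the topoisomerase II enzymes, TOP2A is made by dividing cells and TOP2B also by cells that no longer divide, such as heart muscle cells. In patients the drug suppresses the bone marrow and can injure the heart, as the related anthracyclines do.

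Values are log2 levels, so that a difference of 1 is a doubling. A change is the mean of treated minus control animals after adjustment for duration, with its standard error (SE). A gene was called up- or down-regulated when limma, which fits all 14217 genes together and shares their spread, gave a p no higher than 0.01 after Benjamini-Hochberg adjustment, together with a 1.5-fold or larger change. Across the genes, which are not independent replicates, each of the 31 arrays correlated with their mean at r = 0.987 to 0.996. The heart muscle list held 22 measured genes, and its mean level was 13.34 to 13.45 in treated and 13.29 to 13.50 in control animals, against a median of 6.99 for all genes in controls. Alb, the albumin gene of liver, exceeded 12 on 3 of the 31 arrays. These were 1 of mitoxantrone at 1 d (13.79, against 9.04 and 6.37 in the other two rats of that day) and 2 of controls (12.29 at 1 d and 12.80 at 5 d). The liver list had 19 measured genes, with a mean level of 5.32 to 9.02 in treated and 5.25 to 7.83 in control animals. Its median change was 1.06 at 1 d, 0.0044 at 3 d and -0.35 at 5 d, and without the 3 arrays 177 genes were called in place of 151.

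Over all durations, 151 of the 14217 genes (1.06%) were called, 77 up-regulated (0.542%) and 74 down-regulated (0.521%). Without adjustment, limma gave p-values under 0.05 for 8.88% of all genes higher and 10.2% lower. The list counts over all durations given below are to be read beside these shares. The lists were chosen with earlier results of these data known, so that their counts and medians are descriptions. The 77 up-regulated genes had a positive change at each of the 3 durations, and 72 of the 74 down-regulated genes a negative one, the exceptions being Lpar6 and Hic1 at 1 d. In 5 genes all 9 treated animals lay above all 22 controls, and in 1 gene all lay below, which together is 0.0422% of the genes. The 5 were Aen, Mgmt, Zmat3, Mmp2 and Cdc42ep2, and the 1 was Rsad2. Genes that p53 switches on, stress genes and glucocorticoid targets were among the up-regulated, and genes of red blood cells, of dividing cells and of immune cells among the down-regulated. In heart tissue taken whole, fewer cells of a type and less RNA per cell cannot be told apart.

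**Figure D1:**
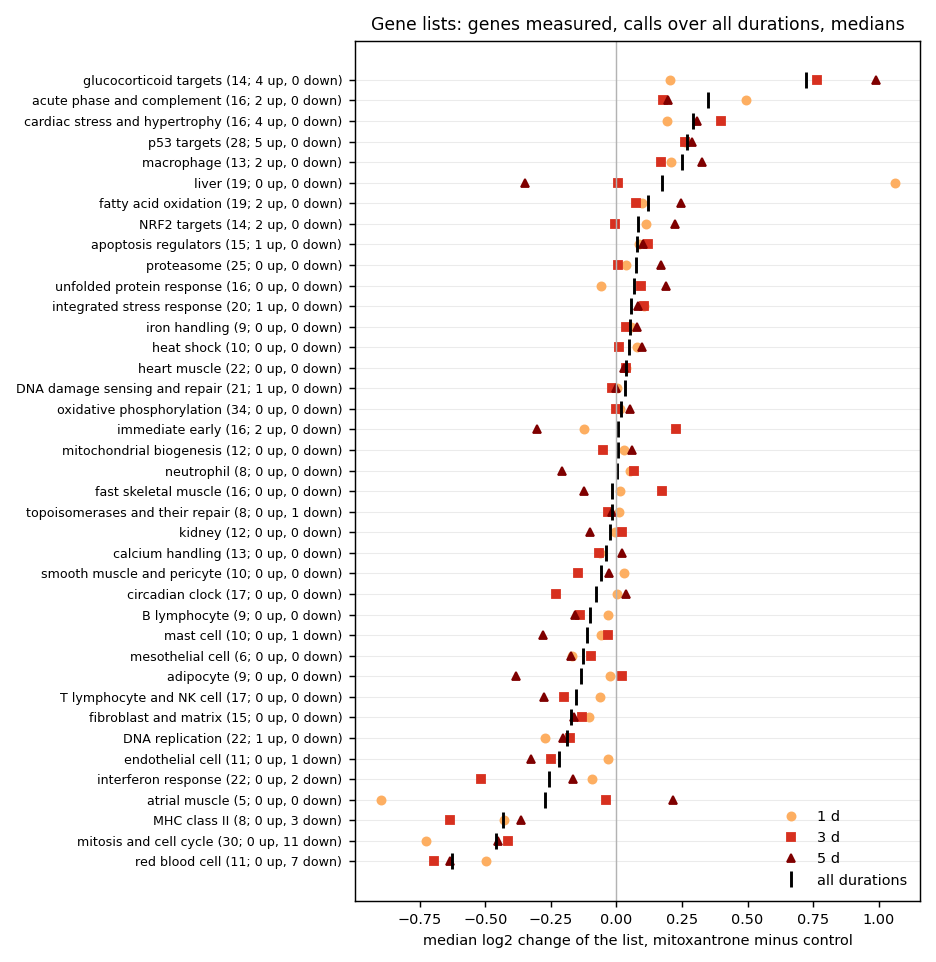
Median log2 change of each gene list after mitoxantrone (horizontal axis), at 1 d (circles), 3 d (squares) and 5 d (triangles) and over all durations (black bars), with the number of genes measured and called beside each name. Red blood cell genes (-0.63) and mitosis genes (-0.46) lie lowest over all durations and glucocorticoid targets (0.72) highest, while heart muscle genes lie at 0.04.

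Some targets of p53 were up-regulated. Of 28 measured genes of the list, 20 had a change above 0 and 8 below, and 5 were called up-regulated over all durations (Cdkn1a, Ephx1, Phlda3, Aen and Zmat3), beside 0.542% of all genes. The median change of the list was 0.27, against -0.0023 over all genes, and it was 0.26, 0.26 and 0.29 at 1, 3 and 5 d. The number called was 4 without the second treated animal of 5 d. It was 8 without the first treated animal of 1 d or without the eighth control of 3 d, so that it rests in part on single animals. Cdkn1a encodes p21, the inhibitor that halts the cell cycle downstream of p53. The 250 bases before its start are shown because the motif search found 1 p53 half-site in them (capitals, at positions -201 to -192 from the start). The sequence is from RefSeq on build GRCr8, chr20:7150682-7150931, plus strand.
Cdkn1a promoter: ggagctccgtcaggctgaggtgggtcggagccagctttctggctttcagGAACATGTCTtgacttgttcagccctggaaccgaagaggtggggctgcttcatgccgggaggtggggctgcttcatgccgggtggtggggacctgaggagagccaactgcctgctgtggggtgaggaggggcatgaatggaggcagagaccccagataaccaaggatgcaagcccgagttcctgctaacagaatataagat
The half-site was found in 7.89% of the 27457 promoter windows of the RefSeq table (250 bases before to 50 after the start, both strands), in 6 of the 23 list members that have a window (26.1%) and in 2 of the 4 called members with one, Cdkn1a and Aen. A match of letters is a description and not a bound site.

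Cdkn1a stood at 10.11, 9.95 and 10.39 in the treated rats of 1 d, where the 6 controls had a lowest, median and highest level of 8.69, 8.91 and 9.03. At 3 d the treated levels were 11.65, 11.41 and 10.48, against 8.87, 9.66 and 10.43, and at 5 d 11.18, 11.27 and 11.24, against 8.70, 9.40 and 10.33. At each duration the 3 treated animals lay above every control of that duration, by a narrow margin for the third animal of 3 d. The change over all durations was 1.54 ± 0.17 (SE, 9 treated and 22 control animals), a 2.92-fold increase with an adjusted p of 1.65e-07. Against the 3 controls of the drug's own study, which had been given corn oil under the skin, it was 0.95 and not called (adjusted p = 0.0793).

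Aen, a nuclease that p53 induces in apoptosis, was the steadiest member of the list. Its levels were 8.21, 8.25 and 8.38 at 1 d, 7.98, 8.32 and 7.89 at 3 d and 7.89, 8.27 and 8.10 at 5 d in treated rats. The controls ran from 7.23 to 7.45 (median 7.36) at 1 d, from 7.17 to 7.56 (7.35) at 3 d and from 7.06 to 7.66 (7.31) at 5 d. Treated and control animals did not overlap, and the change was 0.80 ± 0.06 (adjusted p = 3.88e-10), with calls at each of the 3 durations. Phlda3, which restrains the kinase AKT under p53, changed by 0.97 ± 0.11 (adjusted p = 2.60e-07), from 7.21 to 8.16 in controls to 8.10 to 9.07 in treated rats. Zmat3, an RNA-binding protein of the p53 programme, changed by 0.60 ± 0.08 (adjusted p = 1.23e-05) and lay at 7.38 to 7.91 in treated and 6.47 to 7.35 in control animals. Ephx1, the microsomal epoxide hydrolase, changed by 1.30 ± 0.18 (adjusted p = 1.74e-05), and 8 of the 9 treated animals lay above all controls.

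Other p53 targets did not pass both thresholds over all durations. Ccng1 (cyclin G1) changed by 0.28 ± 0.04 (adjusted p = 8.43e-05), short of the fold change threshold, and the same held for Rps27l (0.58), Tp53inp1 (0.57) and Sesn1 (0.55). At 5 d those 3 were called, at 0.80, 0.73 and 0.99, as was Ddit4, an inhibitor of the growth kinase mTOR, at 1.78. Mdm2, the ligase that degrades p53, stood at 0.23 (adjusted p = 0.0163), with 0.23 to 0.55 over its 3 probe sets. Gadd45a was at 0.54 (adjusted p = 0.0119) and the pro-apoptotic Bbc3 at 0.05 (adjusted p = 0.814), neither of them a call. In all, 9 members were called up-regulated at 5 d (0.717% of all genes), 4 at 3 d (0.19%) and 1, Aen, at 1 d (0.0281%).

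Mgmt, the enzyme that takes alkyl groups off guanine, had the lowest adjusted p of all genes (5.43e-11). The treated rats had levels of 8.14, 7.98 and 7.71 at 1 d, 7.99, 8.17 and 7.70 at 3 d and 7.81, 8.02 and 8.15 at 5 d. The 22 controls lay between 6.68 and 7.25, below every treated animal. Its change was 1.01 ± 0.07, a 2.02-fold increase, and it was 0.89, 1.01 and 1.13 at 1, 3 and 5 d. It was the only gene called of 21 measured for DNA damage sensing and repair, whose median change was 0.03. Of the 8 measured topoisomerases and enzymes that remove them from DNA, 1 was called, Top2a, described with the dividing cells. Top2b, the isoform of non-dividing cells, stood at -0.07 (adjusted p = 0.655). Bcl2l1, which opposes apoptosis, was the only call over all durations among 15 apoptosis regulators (0.75 ± 0.11). At 5 d, where 0.717% of all genes were called up-regulated, it was called with 2 others, Mcl1 (0.66) and Nol3 (0.73).

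**Figure D2:**
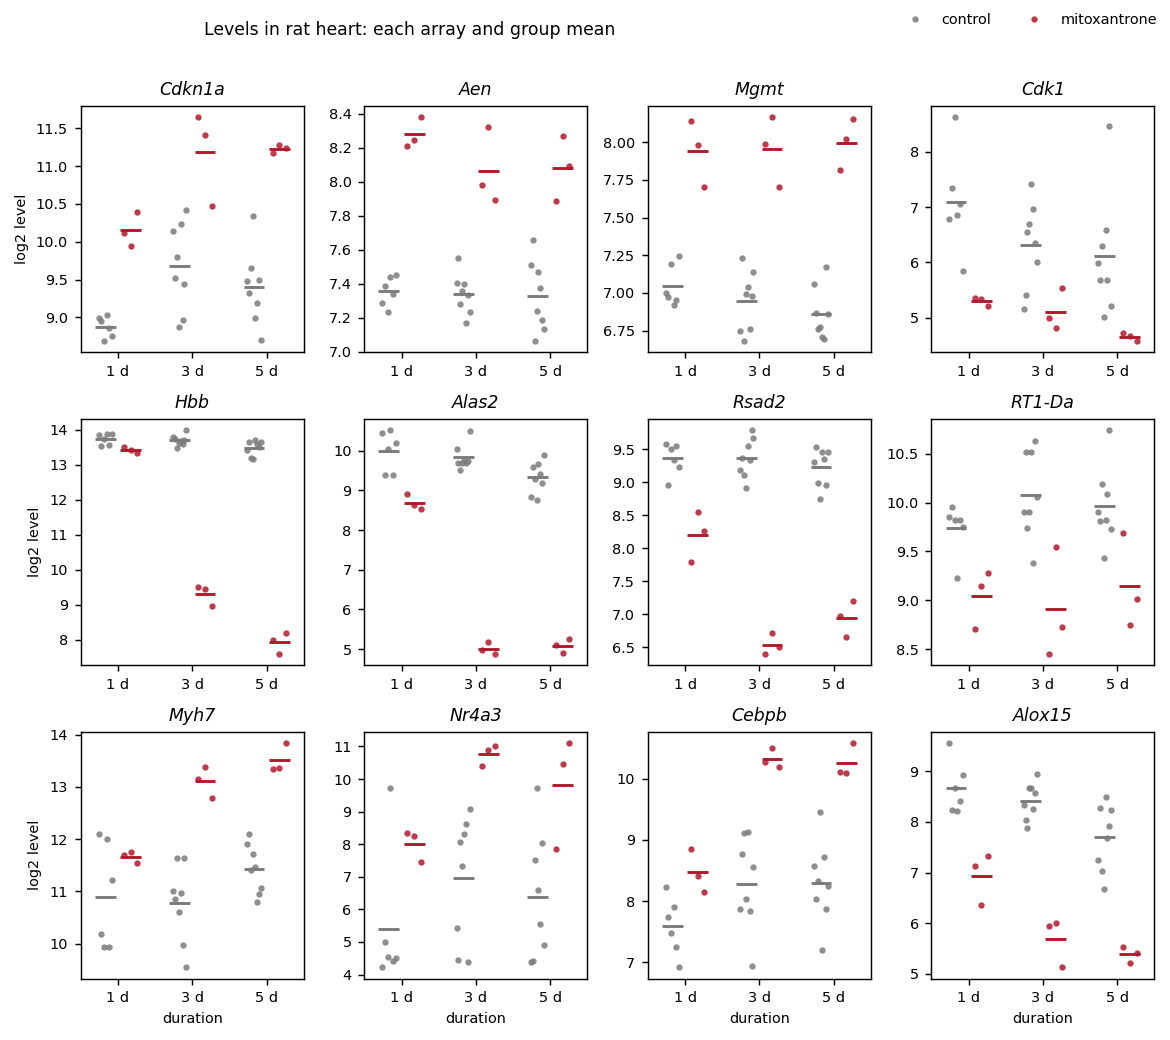
Log2 level on each array (vertical axis) by duration (horizontal axis) for 12 genes, in control (grey) and mitoxantrone (red) animals, with horizontal bars for group means. For Aen and Mgmt every treated animal lies above every control, Hbb is near its controls at 1 d and at 7.58 to 8.20 at 5 d, and the spread of Nr4a3 in controls is wide.

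Genes of dividing cells were lower, 11 of them past the thresholds. All 30 measured genes of the mitosis list had a change below 0, with a median of -0.46, and 11 were called (0.521% of all genes were called down-regulated). The mean level of the list was 4.84 to 5.11 in treated and 4.97 to 6.68 in control animals. Its median gene had a level of 5.51 in controls, against 6.99 for all genes, so that these genes were low on the arrays. Cdk1, the kinase that drives entry into mitosis, changed by -1.47 ± 0.29 (adjusted p = 0.00149). The proliferation marker Mki67 changed by -1.24 ± 0.27 (adjusted p = 0.00342), the spindle midzone protein Prc1 by -1.36 ± 0.27 and Ccnb2 (cyclin B2) by -1.15 ± 0.27. The other 7 were Top2a, Kif20a, Nusap1, Cenpf, Cdca3, Ube2c and Racgap1, at -1.04 to -0.69. Outside the list Cks2 (-1.40), Cdkn3 (-1.22) and Lmnb1 (-1.08), which serve the cell cycle or the nuclear lamina, were also called. Lmnb1 was chosen after its value was seen.

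Promoters of such genes are shown because many carry CCAAT boxes and a cell cycle homology region (CHR, TTTGAA), elements known from genes expressed in mitosis. Capitals mark CCAAT and TTTGAA on either strand in the 250 bases before the start, from RefSeq on GRCr8. Cdk1 lies at chr20:19265043-19265292 (plus strand), Prc1 at chr1:143659231-143659480 (plus strand) and Top2a at chr10:84473094-84473343 (minus strand).
Cdk1 promoter: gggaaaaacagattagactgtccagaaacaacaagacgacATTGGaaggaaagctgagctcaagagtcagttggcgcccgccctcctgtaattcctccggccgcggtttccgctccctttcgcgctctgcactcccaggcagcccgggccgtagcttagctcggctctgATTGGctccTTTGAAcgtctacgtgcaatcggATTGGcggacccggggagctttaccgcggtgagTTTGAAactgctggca
Prc1 promoter: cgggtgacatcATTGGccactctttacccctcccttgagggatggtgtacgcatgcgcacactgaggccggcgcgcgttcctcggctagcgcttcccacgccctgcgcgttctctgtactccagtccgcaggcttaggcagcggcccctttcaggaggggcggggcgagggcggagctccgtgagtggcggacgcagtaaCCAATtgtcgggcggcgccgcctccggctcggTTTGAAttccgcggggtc
Top2a promoter: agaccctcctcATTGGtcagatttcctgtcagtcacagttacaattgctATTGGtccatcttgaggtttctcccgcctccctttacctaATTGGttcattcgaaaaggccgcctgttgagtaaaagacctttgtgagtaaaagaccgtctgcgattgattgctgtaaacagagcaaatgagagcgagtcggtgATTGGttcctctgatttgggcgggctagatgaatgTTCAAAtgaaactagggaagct
CCAAT was found in 37.7% of all windows and in 20 of the 25 mitosis genes that have one (80.0%), among them 9 of the 9 down-regulated. TTTGAA was found in 18.1% of all windows, in 17 of those 25 (68.0%) and in 7 of those 9 (77.8%). Cdk1 holds 3 CCAAT and 2 TTTGAA, Prc1 2 and 1, and Top2a 4 and 1.

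In the control animals these genes varied widely. Cdk1 had a lowest, median and highest level of 5.84, 6.96 and 8.63 in controls of 1 d, and the treated rats had 5.37, 5.33 and 5.22. At 3 d the treated levels were 4.99, 4.81 and 5.54, against 5.16, 6.44 and 7.41, and at 5 d 4.73, 4.67 and 4.58, against 5.01, 5.84 and 8.48. The treated animals lay below every control of their duration except the third of 3 d. Mki67 lay at 4.09 to 4.51 in treated and 4.22 to 7.56 in control animals. Top2a, the topoisomerase II of dividing cells and a target of the drug, lay at 5.03 to 5.79 in treated and 5.40 to 7.77 in control animals, and its change was -0.93 ± 0.22 (adjusted p = 0.00731). The Top2a call was lost when any 1 of 13 arrays was left out, 8 of them treated animals, and a second Top2a probe set gave -0.49. The 11 calls became 0 without 1 d or without 3 d, 2 without 5 d and 3 against controls of the neighbouring studies alone. Cdk1 (-1.94, adjusted p = 0.000111) and Mki67 (-1.61, 2.65e-05) stayed called by limma against the corn oil controls of the same study. So did Prc1 (-1.67, 0.000111) and Top2a (-1.30, 0.000623). The calls numbered 6 by the methods' t-test (the same linear model without sharing of spread between genes) or with RNA extraction batch as a block. The count was 2 when only the upper 60% of genes by level were tested. That setting left out Cdk1, Mki67 and Top2a beforehand, so that they could not be called. The 11 calls became 6 without any 1 treated animal of 1 d and 7 without any of 3 d replicate 1, 3 d replicate 2, 5 d replicate 1 or 5 d replicate 3. None of the 30 was called at a single duration by limma or the methods' t-test. Limma gave p-values under 0.05 for 23 of them at 1 d, 10 at 3 d and 10 at 5 d, all lower. Of all 14217 genes, 398, 1340 and 968 were lower at that p. Within the 6 hybridisation batches the difference of Cdk1 ran from -2.13 to -0.63.

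Cdc25b, a phosphatase that activates CDK1, was called outside the list. It changed by -1.71 ± 0.18 (adjusted p = 9.53e-08), with -0.95 at 1 d, -2.33 at 3 d and -1.79 at 5 d. The treated rats lay at 7.12 to 7.67 at 1 d, 5.55 to 6.18 at 3 d and 5.79 to 5.99 at 5 d, below every control of their duration. DNA replication genes had a median change of -0.19, with 21 of 22 below 0. The only call there was Tyms, thymidylate synthase, which was up-regulated by 0.64 ± 0.12.

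Red blood cell genes had the lowest median change of the lists over all durations. Of 11 measured, 7 were called down-regulated (Hbb, Alas2, Slc4a1, Tent5c, Ahsp, Rhd and Hemgn), beside 0.521% of all genes. All 11 had a change below 0, with a median of -0.63. The mean level of the list was 5.32 to 6.65 in treated animals and 6.76 to 7.76 in controls, without overlap. Such transcripts are known from red cell precursors and from young red cells in blood, and fade as the cells mature. Hbb, a beta chain of haemoglobin, stood at 13.50, 13.41 and 13.33 in treated rats at 1 d, against 13.54, 13.79 and 13.89 (lowest, median and highest control). It stood at 9.50, 9.46 and 8.97 at 3 d, against 13.48, 13.69 and 13.99, and at 7.99, 7.58 and 8.20 at 5 d, against 13.15, 13.55 and 13.70. Every treated animal lay below every control of its duration, and the change went from -0.32 at 1 d to -4.38 at 3 d and -5.56 at 5 d. Globin genes are near-identical copies, so that their probe sets may share targets.

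Alas2, the first enzyme of haem synthesis in red cell precursors, stood at 8.92, 8.64 and 8.53 at 1 d, 4.98, 5.17 and 4.87 at 3 d and 5.10, 4.90 and 5.26 at 5 d. Its controls ran from 9.38 to 10.52, from 9.52 to 10.50 and from 8.76 to 9.90. The groups did not overlap at any duration, and the change was -3.52 ± 0.30 (adjusted p = 1.40e-09). Hba-a3, an alpha globin, changed by -2.68 ± 0.26, with -0.74, -3.50 and -3.65 at 1, 3 and 5 d. Slc4a1, the anion exchanger band 3, was low from the first day, at 5.52, 5.73 and 5.82 against 7.82 to 8.31 in controls. At 3 d it was 4.91, 4.89 and 7.36 against 7.10 to 8.78, and at 5 d 6.91, 4.96 and 6.38 against 6.00 to 8.30, so that 1 treated animal overlapped the controls at 3 d and 2 did at 5 d. The change of Slc4a1 over all durations was -1.88, and -0.58 by its second probe set. Car2, a carbonic anhydrase abundant in red cells, and Bpgm, which makes the phosphoglycerate that tunes haemoglobin, changed by -1.33 ± 0.12 and -1.20 ± 0.12. Bpgm was on no list and was chosen after its value was seen. Tent5c, a poly A polymerase, changed by -1.85 ± 0.17 (adjusted p = 8.27e-09).

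**Figure D3:**
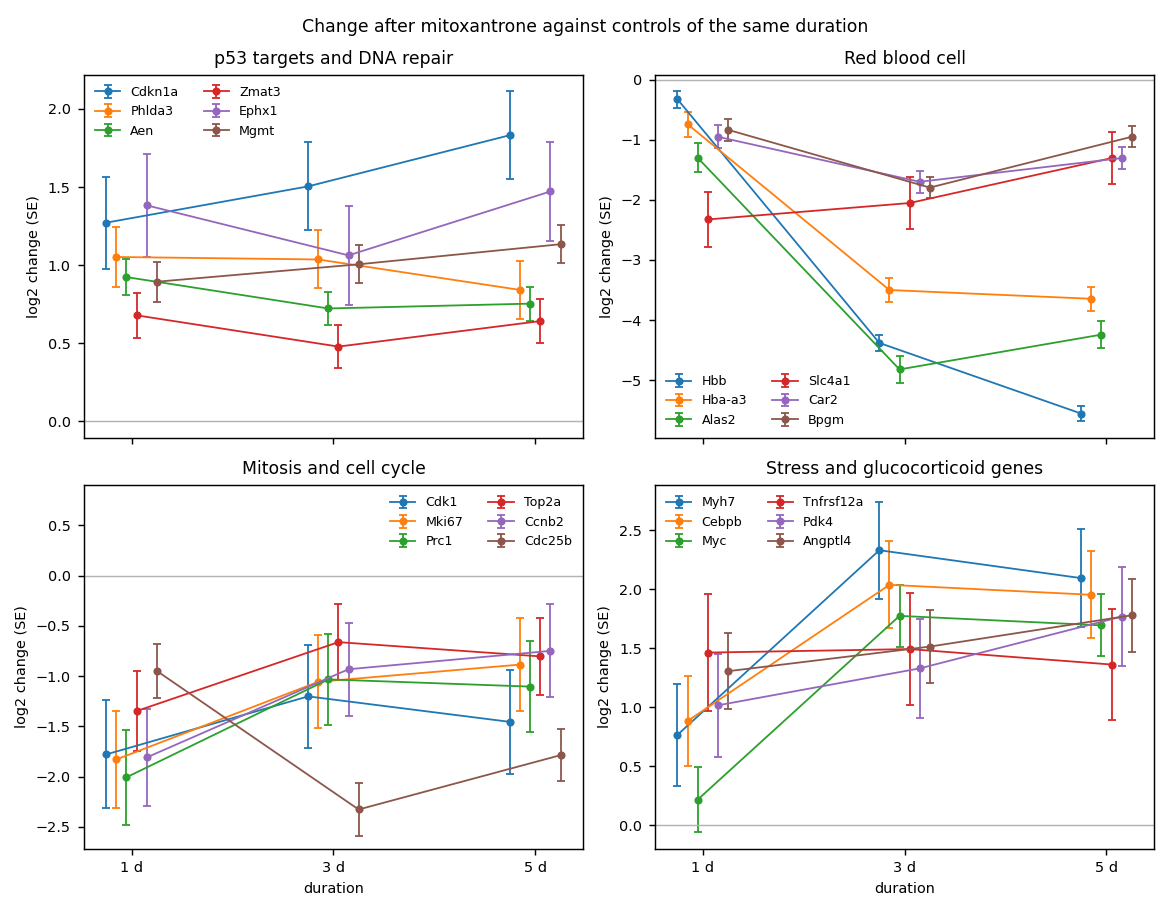
Log2 change against controls of the same duration (vertical axis, points with bars of 1 SE) at 1, 3 and 5 d (horizontal axis) for 4 groups of genes. Hbb goes from -0.32 at 1 d to -5.56 at 5 d, Cdkn1a is at 1.27 at 1 d, where it was not called, and Myc goes from 0.21 at 1 d to 1.77 at 3 d.

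A few genes of the interferon response and of antigen presentation were down-regulated. Of 22 interferon genes 20 had a change below 0, with a median of -0.26. Rsad2 and Mx2 were called, beside 0.521% of all genes called down-regulated. Rsad2, which encodes the antiviral enzyme viperin, stood at 7.80, 8.55 and 8.27 at 1 d, 6.40, 6.71 and 6.50 at 3 d and 6.98, 6.66 and 7.21 at 5 d. Its 22 controls lay between 8.74 and 9.79, above every treated animal. The change was -2.11 ± 0.16 (adjusted p = 1.63e-10), with calls at each duration. Mx2, a GTPase that restricts viruses, changed by -0.63 ± 0.12 and at 1 d overlapped its controls. A second Mx2 probe set gave -0.30, and the mean of its probe sets gave -0.46 without a call. The Mx2 call was also lost with RNA extraction batch as a block (adjusted p = 0.0104), without 3 d (0.136) and without 5 d (0.0411). The same held against controls of the neighbouring studies alone (0.0119) and corn oil controls of the same study (0.0454). Cmpk2 (-0.80), Ifi44l (-0.76) and Rtp4 (-0.86), also known as interferon-induced, were called as well. Cmpk2, Ifi44l and Rtp4 were on no list and were chosen after their values were seen. The Rsad2 promoter is shown for its interferon response element (GAAA, any 2 bases and GAAA again, in capitals, here on the opposite strand, at positions -147 to -138 from the start), in RefSeq on GRCr8 at chr6:48788121-48788370, minus strand.
Rsad2 promoter: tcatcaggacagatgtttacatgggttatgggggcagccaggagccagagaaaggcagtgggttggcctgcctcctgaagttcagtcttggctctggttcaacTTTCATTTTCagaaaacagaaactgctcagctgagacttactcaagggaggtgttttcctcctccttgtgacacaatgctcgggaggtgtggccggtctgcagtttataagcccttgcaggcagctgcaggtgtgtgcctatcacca
The element was found in 3.77% of all windows and in 11 of the 17 interferon genes with a window (64.7%).

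All 8 measured genes of MHC class II, which presents antigen on macrophages, dendritic cells and B lymphocytes, had a change below 0. Their median was -0.43, and RT1-Da (-0.90 ± 0.15), RT1-Ba (-0.90 ± 0.16) and RT1-Db1 (-0.80 ± 0.15) were called, beside 0.521% of all genes. RT1-Da stood at 8.71, 9.14 and 9.28 at 1 d, 8.45, 9.54 and 8.73 at 3 d and 9.69, 8.75 and 9.01 at 5 d. Its controls ran from 9.23 to 9.96, from 9.38 to 10.63 and from 9.44 to 10.74, so that 2 of the 3 treated animals of each duration lay below all controls and 1 did not. The 4 probe sets of RT1-Ba ran from -0.90 to -0.03, and their mean gave -0.38 without a call. The call count of this list was 1 with the mean of each gene's probe sets and 0 without 3 d or against the corn oil controls of the same study. Ptprc (CD45, -0.71 ± 0.11), Coro1a (-1.23 ± 0.14), Cd52 (-0.75) and Cd53 (-0.69), which leukocytes express, were called down-regulated too. They were on no list, and all but Coro1a were chosen after their values were seen. A second Ptprc probe set gave -0.39. Alox15, a lipoxygenase of immature red cells, eosinophils and macrophages, changed by -2.27 ± 0.19 (adjusted p = 1.40e-09). Its treated levels were 6.36 to 7.33 at 1 d, 5.13 to 6.01 at 3 d and 5.22 to 5.52 at 5 d, below every control of the same duration (8.21 to 9.56, 7.88 to 8.95 and 6.68 to 8.50).

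Markers of lymphocytes were low in both groups. The T lymphocyte and NK cell list had 17 measured genes, all with a change below 0 and a median of -0.15, and its mean level was 5.37 to 5.76 in treated and 5.53 to 5.90 in control animals. None of the 17 was called, and the methods' t-test gave 0 calls. Limma gave p-values under 0.05 for 7 of them, all lower, beside 10.2% of all genes lower. Macrophage markers were mixed, with 10 of 13 changes above 0 and 3 below. Lyve1 and Mrc1, receptors of resident macrophages, were the 2 of 13 called up-regulated, at 1.11 ± 0.16 and 0.60 ± 0.12, beside 0.542% of all genes. The Mrc1 call was lost with RNA extraction batch as a block (adjusted p = 0.0149), without 3 d (0.0125) and without 5 d (0.0624). It was also lost against the corn oil controls of the same study (adjusted p = 0.0181). Lyve1 lay at 9.10 to 10.07 in treated and 7.58 to 9.11 in control animals, and it also marks lymphatic endothelium. Cd163 was at 0.43, Csf1r at -0.41 and Cd68 at 0.11, none of them a call. Cpa3, a protease of mast cells and the only call of 10 genes of that list, changed by -0.68 ± 0.13 (adjusted p = 0.000839), with -1.20 at 5 d. B lymphocyte and neutrophil markers held no call, with p-values under 0.05 for 2 of 9 and 3 of 8 genes, all lower, and 0 calls by the methods' t-test in both.

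Some stress genes of the muscle were up-regulated. Over all durations none of the 22 heart muscle genes was called, their median change was 0.04, and limma gave p-values under 0.05 for 5 higher and 2 lower (0 calls by that t-test). Myh6, the fast myosin heavy chain of adult rat heart, stood at -0.04. Myh7, the slow myosin heavy chain that hearts of rodents express before birth and under load, stood at 11.69, 11.75 and 11.54 in treated rats at 1 d, against 9.94, 10.70 and 12.10 (lowest, median and highest control). At 3 d it was 13.15, 13.38 and 12.79, against 9.54, 10.91 and 11.65, and at 5 d 13.34, 13.37 and 13.84, against 10.79, 11.44 and 12.09. The groups overlapped at 1 d and were apart at 3 and 5 d, and the change was 1.76 ± 0.26 (3.38-fold, adjusted p = 4.79e-05).

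Of 16 cardiac stress and hypertrophy genes, 4 were called up-regulated, beside 0.542% of all genes, with a median of 0.29 for the list. Beside Myh7 these were Xirp1, an actin-binding protein of the intercalated disc (0.89 ± 0.15), Rcan1, an inhibitor and target of calcineurin (0.71 ± 0.12), and Bex1 (0.82 ± 0.19). The natriuretic peptide genes were not called, Nppa at 0.16 (adjusted p = 0.908) and Nppb at 0.43 (adjusted p = 0.0917), and nor were Acta1 at -0.09 and Ccn2 at 0.77. The 4 calls became 0 without 3 d, 2 without 5 d, and 1 against controls of the neighbouring studies alone or with RNA extraction batch as a block. Calcium handling held no call over all durations among 13 genes, with p-values under 0.05 for 3 higher and 3 lower (0 by the methods' t-test). The calcium release channel Ryr2, on this list and the heart muscle list, was called down-regulated at 3 d (-0.63) and 5 d (-0.69). Outside the lists Tnfrsf12a, the receptor of the cytokine TWEAK, changed by 1.44 ± 0.27 (adjusted p = 0.000754), and Abra, an actin-binding activator of growth signalling in muscle, by 1.40 ± 0.27. Both calls were lost with RNA extraction batch as a block (adjusted p = 0.0366 and 0.0272), and that of Abra against the corn oil controls of the same study (adjusted p = 0.348). Rnd1, a small GTPase that loosens the actin skeleton, changed by 1.49 ± 0.20 (adjusted p = 1.33e-05), from 5.89 to 7.69 in controls to 7.41 to 8.75 in treated animals.

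Nr4a3, an orphan nuclear receptor of the early response, had the largest increase of all genes and a wide spread in controls. It stood at 8.34, 8.24 and 7.46 at 1 d, 10.41, 10.89 and 11.02 at 3 d and 7.86, 10.47 and 11.10 at 5 d. Its controls had a lowest, median and highest level of 4.22, 4.53 and 9.72 at 1 d, 4.37, 7.70 and 9.09 at 3 d and 4.40, 6.09 and 9.74 at 5 d. Only at 3 d did all 3 treated animals lie above the controls, and the change of 3.30 ± 0.64 (9.83-fold, adjusted p = 0.00117) is that of 1 of its 3 probe sets, which ran from -0.75 to 3.30. Within the 6 hybridisation batches the difference ran from 0.42 to 6.20. Cebpb, a transcription factor of the stress and acute phase responses, changed by 1.65 ± 0.23 (adjusted p = 1.70e-05). Its treated levels were 8.15 to 8.85 at 1 d, 10.18 to 10.50 at 3 d and 10.08 to 10.58 at 5 d, against 6.92 to 8.23, 6.94 to 9.12 and 7.21 to 9.46 in controls. They overlapped at 1 d and were apart at 3 and 5 d. Myc changed by 1.26 ± 0.20 (adjusted p = 7.96e-05), with 0.21 at 1 d, 1.77 at 3 d and 1.69 at 5 d. Against the 3 corn oil controls of the same study none of these 3 changes was called, with Nr4a3 at 2.38 (adjusted p = 0.182), Cebpb at 0.79 (adjusted p = 0.0933) and Myc at 0.86 (adjusted p = 0.229). The Nr4a3 call was also lost with RNA extraction batch as a block (adjusted p = 0.0177). Nr4a3 and Myc were the 2 calls of 16 immediate early genes, whose median change was 0.0060. Atf3, induced by many stresses, stood at 2.18 without a call (adjusted p = 0.0315).

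Some genes induced by glucocorticoids and by fasting were up-regulated. Of 14 glucocorticoid targets 4 were called up-regulated, beside 0.542% of all genes. A change above 0 was found for 13, and the list's median of 0.72 was 0.20 at 1 d, 0.76 at 3 d and 0.99 at 5 d. The 4 were Angptl4, an inhibitor of lipoprotein lipase (1.54 ± 0.18, adjusted p = 7.89e-07), Pdk4, the kinase that shuts pyruvate dehydrogenase (1.38 ± 0.24, adjusted p = 0.000397), the metallothionein Mt2A (0.89 ± 0.14) and Cdkn1a, which is on the p53 list too. Angptl4 lay at 6.64 to 8.86 in treated and 5.35 to 6.93 in control animals, and Pdk4 at 11.25 to 12.86 and 9.76 to 12.02. Within each duration all 3 treated animals lay above every control for Angptl4, and for Pdk4 all but 1 animal of 1 d. The Pdk4 call was lost with RNA extraction batch as a block (adjusted p = 0.0245) and the Angptl4 call against the corn oil controls of the same study (adjusted p = 0.0174). Fkbp5, a classic target of the receptor, missed the call at 0.91 (adjusted p = 0.0101). The 4 calls became 2 without 3 d or without 5 d. Angptl4 and Pdk4 were also the 2 calls of 19 fatty acid oxidation genes, all 19 of which had a change above 0, with a median of 0.12.

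Detoxification genes held 2 calls among 14 NRF2 targets, beside 0.542% of all genes called up-regulated. These were the glutathione transferase Gsta1 (1.17 ± 0.13, adjusted p = 4.66e-07), with all 9 treated animals above every control of their own duration, and Srxn1, which restores peroxiredoxins (0.81 ± 0.18). The list's median was 0.08. Oxidative phosphorylation, whose genes build the respiratory chain, held no call among 34 (median 0.02, p-values under 0.05 for 2 higher and 0 lower, 0 by the methods' t-test). Iron handling held no call among 9, and its transferrin receptor Tfrc stood at -0.57 (adjusted p = 0.00457). Proteasome (25 genes), unfolded protein response (16), mitochondrial biogenesis (12) and heat shock (10) genes held no call over all durations either, with medians of 0.07, 0.07, 0.0053 and 0.05 and p-values under 0.05 for 6, 4, 0 and 4 genes higher and 0, 0, 1 and 0 lower (0 by the methods' t-test in each). At 5 d the coactivator Ppargc1b, of the mitochondrial biogenesis list, was called at -0.72.

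Of 16 acute phase and complement genes, many of which liver makes, 15 had a change above 0. The 2 called, beside 0.542% of all genes, were Orm1 (orosomucoid) at 0.84 and the complement protease C1s at 0.71 ± 0.10. The mean level of this list was 6.64 to 8.36 in treated and 6.35 to 7.31 in control animals. The 2 calls became 1 without the treated animal of 1 d with high Alb, and stayed 2 without all 3 arrays with Alb over 12. They became 0 against controls of the neighbouring studies alone or without 5 d.

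Few vessel and matrix genes were called. Aplnr, the apelin receptor of endothelium, changed by -0.95 ± 0.13 (adjusted p = 2.25e-05), with -0.45, -0.82 and -1.52 at 1, 3 and 5 d. It was the only call of 11 endothelial genes, whose median was -0.22, and its second probe set gave -0.48. Limma gave p-values under 0.05 for 6 of the 11 lower and 1 higher, beside 10.2% and 8.88% of all genes. Tek (-0.44) and Tie1 (-0.35), the receptors of angiopoietin signalling, missed the fold change threshold, and Sox7 (-0.78 ± 0.14) and Sox18 (-0.67 ± 0.12), endothelial transcription factors, were called. Sox7 and Sox18 were on no list and were chosen after their values were seen. Mmp2, a gelatinase of the matrix, changed by 0.94 ± 0.08 (adjusted p = 1.25e-09), and its 9 treated levels of 10.67 to 11.13 lay above the controls' 9.58 to 10.47. A second Mmp2 probe set gave 0.09. The fibroblast and matrix list had no call among 15, a median of -0.17 and p-values under 0.05 for 4 genes, all lower (0 by the methods' t-test).

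Single durations gave fewer or other calls. At 1 d 5 genes were called (0.0352%), namely Aen (0.92), Mmp2 (0.92), Mgmt (0.89), Gas6 (0.63) up-regulated (0.0281%) and Rsad2 (-1.16) down-regulated (0.00703%). The count was 1 without the first treated animal of that day, 2 without the third (the animal with high Alb), 3 without the third control and 8 without the second. At 3 d 105 genes were called (0.739%), 27 up- (0.19%) and 78 down-regulated (0.549%), and leaving out any 1 treated animal of that day gave 42 to 58. At 5 d 151 were called (1.06%), 102 up- (0.717%) and 49 down-regulated (0.345%), with 91 without the second and 57 without the third treated animal. Of these, 47 were called at both 3 and 5 d with the same sign, which is 44.8% of the 3 d and 31.1% of the 5 d genes.

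A change that differed between durations was found for 4 genes (0.0281%) by the interaction test. These were Hbb (adjusted p = 4.81e-18), Alas2 (8.11e-08), Hba-a3 (8.11e-08) and Rsad2 (0.0078). At 1, 3 and 5 d Hbb was at -0.32, -4.38 and -5.56, Alas2 at -1.30, -4.82 and -4.24 and Hba-a3 at -0.74, -3.50 and -3.65. Rsad2 was at -1.16, -2.83 and -2.28. The count was 11 without the eighth control of 3 d.

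The anthracyclines doxorubicin, epirubicin and daunorubicin also poison topoisomerase II, and differ from mitoxantrone in carrying an amino sugar, which the anthracenedione lacks. Each had 9 intravenous saline arrays at 1, 3 and 5 d, at 3, 2.7 and 3.25 mg/kg, doses that differ from the 2 mg/kg of mitoxantrone, and each came from its own study. Compound, dose and study therefore cannot be told apart. The 4 compounds share the 22 controls, so that their changes against control are given side by side only. Cdkn1a stood at 1.54 after mitoxantrone, 1.03 after doxorubicin, 1.50 after epirubicin and 1.34 after daunorubicin. Aen stood at 0.80, 0.82, 0.94 and 0.91 in that order, and Hbb at -3.51, -2.88, -3.38 and -3.00. Against control 151, 220, 407 and 46 genes were called (1.06%, 1.55%, 2.86% and 0.324%). Of the p53 list, 5, 7, 10 and 5 genes were up-regulated, where 0.542%, 0.823%, 1.61% and 0.0774% of all genes were. Of the mitosis list, 11, 0, 11 and 0 genes were down-regulated, where 0.521%, 0.724%, 1.25% and 0.246% of all genes were. In the direct comparisons by limma none of the 30 was called, with unadjusted p-values under 0.05 for 16 genes lower after mitoxantrone than doxorubicin, 0 than epirubicin and 3 than daunorubicin, and no gene higher. Of all 14217 genes, 2091, 1420 and 727 were lower after mitoxantrone at that p.

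**Figure D4:**
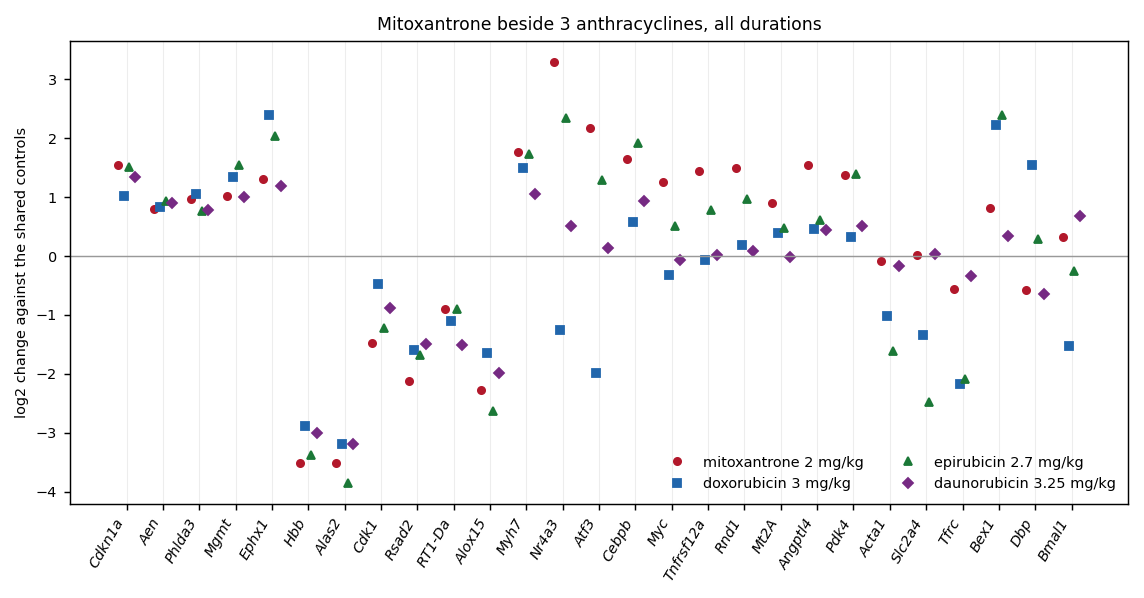
Log2 change against the shared intravenous saline controls (vertical axis) for 27 genes (horizontal axis) after mitoxantrone, doxorubicin, epirubicin and daunorubicin, with the doses in the key. Cdkn1a lies at 1.03 to 1.54 and Aen at 0.80 to 0.94 for the 4 compounds, Slc2a4 is low after epirubicin (-2.48) and doxorubicin (-1.34), and Rnd1 and Myc lie highest after mitoxantrone.

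Direct differences between mitoxantrone and each anthracycline were tested in 3 pairs, with p-values below adjusted over genes and the 3 pairs. Cdkn1a differed from doxorubicin by 0.52 (95% interval 0.12 to 0.91, adjusted p = 0.141), from epirubicin by 0.04 (-0.36 to 0.44) and from daunorubicin by 0.20 (-0.20 to 0.60). Aen differed by -0.03 (-0.21 to 0.16), -0.14 (-0.33 to 0.04) and -0.11 (-0.29 to 0.08). For Hbb the intervals were wider, -1.79 to 0.39, -1.29 to 0.88 and -1.67 to 0.51. These intervals leave room for differences, and the missed threshold does not show that the compounds act alike.

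Against doxorubicin 177 genes were called (1.24%), 88 higher (0.619%) and 89 lower (0.626%), with p-values adjusted within the pair and 163 over the 3 pairs. Of 17 clock genes, 3 were higher and 7 lower after mitoxantrone. The clock activator Bmal1 was 1.85 higher (1.10 to 2.60, adjusted p = 0.00094), and the clock output Dbp differed by -2.10 (-3.00 to -1.19, adjusted p = 0.0021). Against control none of the 17 was called after mitoxantrone (p-values under 0.05 for 3 higher and 1 lower, 0 by the methods' t-test), and 10 were after doxorubicin, 7 higher and 3 lower. Nr4a3 differed by 4.54 (2.95 to 6.14), Myc by 1.57 (adjusted p = 2.15e-05) and Ephx1 by -1.08 (-1.46 to -0.70, adjusted p = 0.000132).

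Against epirubicin 97 genes were called (0.682%), 56 higher (0.394%) and 41 lower (0.288%), or 95 over the 3 pairs. Slc2a4, the insulin-regulated glucose transporter GLUT4, was 2.48 higher after mitoxantrone (2.13 to 2.83, adjusted p = 1.23e-15). Acta1, skeletal alpha actin, was 1.53 higher (1.20 to 1.87), and Tfrc 1.51 higher (adjusted p = 7.58e-06). Maoa, a monoamine oxidase, differed by -1.51 (adjusted p = 1.09e-05) and Bex1 by -1.54 (adjusted p = 0.00025). Against control, Slc2a4 and Acta1 were down-regulated after epirubicin (-2.48 and -1.62) and doxorubicin (-1.34 and -1.02).

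Against daunorubicin 8 genes were called (0.0563%), all higher after mitoxantrone, or 19 over the 3 pairs, 17 higher and 2 lower. Within the pair 0 were lower, where limma gave p-values under 0.05 for 727 lower and 400 higher genes and the methods' t-test called 0 lower. The 8 were Tnfrsf12a (1.44, 0.87 to 2.01), Rnd1 (1.42, 0.94 to 1.90), Myc (1.31, 0.82 to 1.81), Lmcd1 (1.15), Ankrd23 (1.05), Mt2A (0.90), Styxl2 (0.80) and Cdc42ep2 (0.60). After daunorubicin itself Tnfrsf12a, Rnd1 and Myc stood at 0.01, 0.08 and -0.06 against control. The count of 8 ran from 1 to 13 when single arrays were left out and moved by over 1.5 times for 19 of the 58 arrays, and without the arrays with Alb over 12 it was 15.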

How the data were processed

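Hearts of 31 rats (9 mitoxantrone, 22 control) were analysed, with 27 more after the anthracyclines. The values were log2 expression per probe set deposited by the authors in 1 table of 862 arrays. The submitters' processing notes name RMA, with no version, and the study's methods name frozen RMA. Array medians were 5.98 to 6.09, and precision is limited by the number of arrays. The table held 31099 probe sets, among them 57 controls that were left out. A single gene symbol was given for 20826, several for 436 and none here for 9780. Each of 14217 genes was represented by 1 probe set, and 4525 had several. Changes were fitted with limma 3.58.1 in R 4.3.3 (duration plus treatment, and each duration by its own contrast, with Benjamini-Hochberg adjustment), and checked on simulated data. The methods' t-test was run as an alternative, as were batches, other controls and probe set rules. Named genes were up to 15 called each way of largest change and the same sign at each duration, 5 each way per duration and compound, 10 of the interaction, and list members. Genes said above to be chosen after their values were seen fall outside this rule. The gene lists and the genes on them were chosen with earlier results of these data known. The labels do not say that rats came from separate cages or litters, so p-values measure the spread between these animals. The 12 arrays in no group and 2 intravenous controls with conflicting labels were left out.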

Additional observations from a re-analysis of the deposited data

Results flagged for a closer look

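Among 120 control groups (40 genes at 3 durations), 10 held an animal far from the others by Dixon's test, where chance gives about 1 in 20 groups, and they came from 6 arrays. The seventh control of 5 d had the highest Cdk1 (8.48, nearest 6.60), Mki67 (7.41, nearest 5.46) and Top2a (7.77, nearest 6.02). The fourth control of 1 d had the highest Nr4a3 (9.72, nearest 5.00) and Fam107a (7.31, nearest 6.39) and the lowest RT1-Da (9.23, nearest 9.75). The first control of 1 d had the lowest Ephx1 (6.56, nearest 7.53). The highest levels of Angptl4 at 3 d (6.80, nearest 6.04), Gsta1 at 5 d (9.10, nearest 8.36) and Mmp2 at 1 d (10.5, nearest 9.99) came from 1 control each.

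The change after mitoxantrone differed between durations for Hbb (interaction adjusted p = 4.81e-18), Alas2 (8.11e-08), Hba-a3 (8.11e-08) and Rsad2 (0.0078), by limma.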

How the results depend on the processing

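Over all durations 151 genes were called, and 96 with RNA extraction batch as a block, 67 against corn oil controls of the same study, 25 with the shift of the study subtracted, 50 without 3 d and 62 without 5 d. Only 2 extraction batches held both groups, with 4 treated and 7 control animals and with 4 and 4. Batches without a treated animal held 9 and 2 controls, and 1 treated animal lay in a batch without controls. At 1 d the 5 calls became 3 by the methods' t-test, with the mean of probe sets or with the extraction block, and 2 with hybridisation batch as a block. At 3 d 105 became 68 by the t-test, and at 5 d 151 became 52 with the extraction block. Against daunorubicin 8 became 2 by the t-test, the extraction block or the study block, and 15 without arrays with Alb over 12. Leaving out 1 array gave 123 to 167 over all durations, 1 to 8 at 1 d, 42 to 136 at 3 d, 57 to 161 at 5 d, 3 to 11 for the interaction, 132 to 220 against doxorubicin, 78 to 115 against epirubicin and 1 to 13 against daunorubicin. The cause was not tested.

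Of 97 single-gene results, 48 lost the call in at least 1 setting, 22 when 1 array was left out, and 0 reversed. In all 18 settings, Aen, Mgmt and Rnd1 remained up-regulated and Alas2, Alox15, Bpgm, Car2, Cdc25b, Hba-a3, Rsad2 and Tent5c down-regulated, 11 genes in all. With the study shift subtracted, calls fell to 2 for p53 targets, 2 for red blood cell genes and 0 for mitosis, MHC class II and cardiac stress genes. This shift was estimated from 9 corn oil controls, 3 of them of the drug's own study. It was -0.04 (SE 0.50) for Cdk1 and 0.17 (SE 0.69) for Hbb. Changes of Cdk1 (-1.42, reported -1.47), Myh7 (1.72, 1.76), RT1-Da (-0.97, -0.90) and Hbb (-3.65, -3.51) stayed near those reported. Others moved, as Cdkn1a (1.21, 1.54), Alox15 (-3.21, -2.27) and Tnfrsf12a (2.70, 1.44). No paired analysis was possible because replicate numbers follow the order of the samples and pair no animals.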
